A study of Homo sapiens with 2 samples.

Results

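Ribosome biogenesis is the making of ribosomes in the nucleolus, and 50 of its genes are described here, of 26255 gene symbols measured. The members were chosen by symbol, from a list of small nucleolar RNA-protein particles, nucleolar scaffold proteins, processing and assembly factors of the small and large ribosomal subunits, and RNA polymerase I with its initiation factors. All 50 symbols were in both libraries, and all 50 passed the filter used for the other genes, a mean over the libraries of 1 FPKM or more (fragments per kilobase of transcript, scaled to sequencing depth).

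The RNA came from tumours grown under the skin from HT-29 cells, a long-established line of human colon cancer, in female NOD SCID mice that were 5 weeks old when obtained and lack T and B cells. One library came from tumour tissue on normal food, and the other from tumour tissue on food without methionine, tryptophan and niacin, so each diet had 1 library. Rearing on the diets is given as 2 weeks and the whole experiment as 3 weeks. The number of tumours behind a library was not given in the sources used here, and HT-29 is a single line in a host without adaptive immunity. No difference below has a replicate check, no p-value can be given, and diet cannot be told apart from any other difference between the 2 libraries.

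RNA polymerase I transcribes the long precursor of most ribosomal RNA. Guide RNAs in box C/D particles direct methylation of ribosomal RNA, with methyl groups from S-adenosylmethionine, and those in box H/ACA particles direct the change of uridine to pseudouridine. The precursor is then cut, folded and joined with ribosomal proteins by many assembly factors, first in the nucleolus and last in the cytoplasm. Fast-growing tumour cells, those of the colon included, are known for large nucleoli, and the transcription factor MYC is known to drive many of these genes by binding, with its partner MAX, the E-box sequence CACGTG.

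Most members were slightly higher in the library from the depleted diet. Of 50 members 39 were higher and 11 were lower, so 78% were higher against 49.4% of the 12414 genes that passed the same filter. The difference between libraries is given as log2((depleted + 1)/(normal + 1)), with 1 FPKM added to each value. Its median was 0.12 over the members and close to 0 over all genes, whose quartiles were -0.13 and 0.13. The members' own quartiles were 0.0071 and 0.23. Higher by at least 25% on this scale, a log2 ratio of 0.32 or more, were 8 members, or 16%, against 6.94% of all genes. They were RRS1, POLR1E, NOP2, DDX10, NOP16, UTP20, POLR1A and UTP18. No member was lower by the same ratio (at least 20% lower), against 7.15% of all genes, and none was past 2-fold either way, against 0.524% of all genes higher and 0.371% lower. With both libraries scaled to the same summed FPKM, 42 were higher, since WDR75, NOB1 and BOP1 changed sign. The highest log2 ratio was that of RRS1 (0.52) and the lowest that of GAR1 (-0.14).

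**Figure D1:**
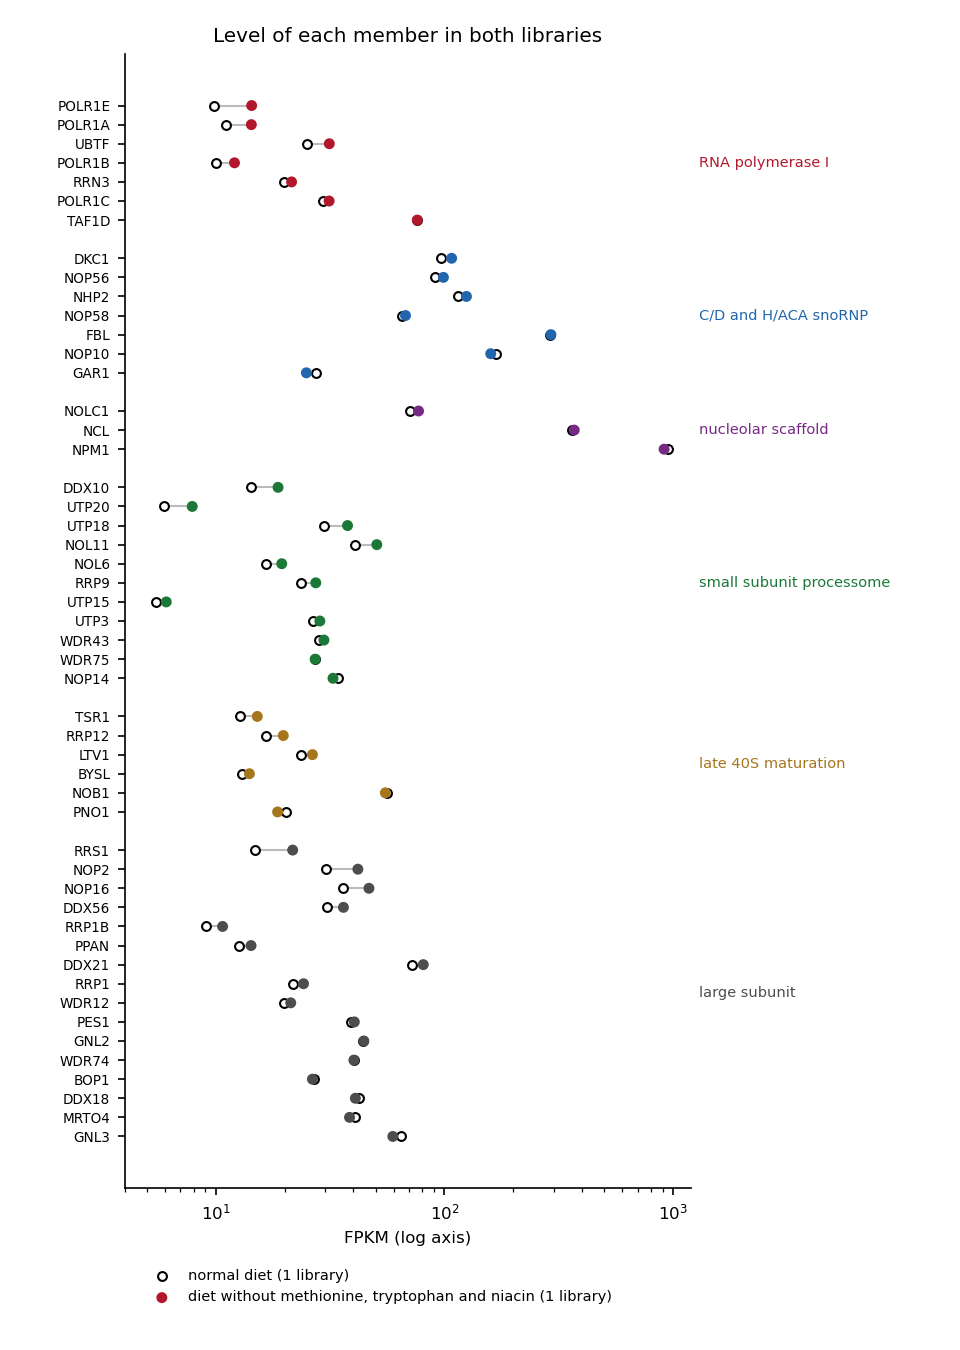
FPKM of each of the 50 members on a log axis, grouped by role and ordered by log2 ratio within a group. Open circles are the normal-diet library and filled circles the depleted-diet library, 1 library each. Levels ran from 5.49 FPKM (UTP15, normal diet) to 946 FPKM (NPM1, normal diet), and in 39 of 50 rows the filled circle lies to the right.

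Counting error was estimated, since FPKM are not counts. In low values of genes with 1 transcript, whole-fragment steps put the libraries at about 7.17e+06 fragments (normal diet) and 6.86e+06 fragments (depleted diet). At that depth POLR1E rested on about 144 fragments in the normal-diet library and NCL on about 10427. The 95% counting interval of the log2 ratio lay above 0 for 20 members and below 0 for 1, NPM1. Over the 11658 genes with a transcript length these shares were 11.5% and 12.3%. They are not matched for level. Of all genes at 1 FPKM or more, 2953 had a mean below 5 FPKM, where intervals tend to be wider, and no member did. Such intervals cover counting error only, not the spread between tumours.

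**Figure D2:**
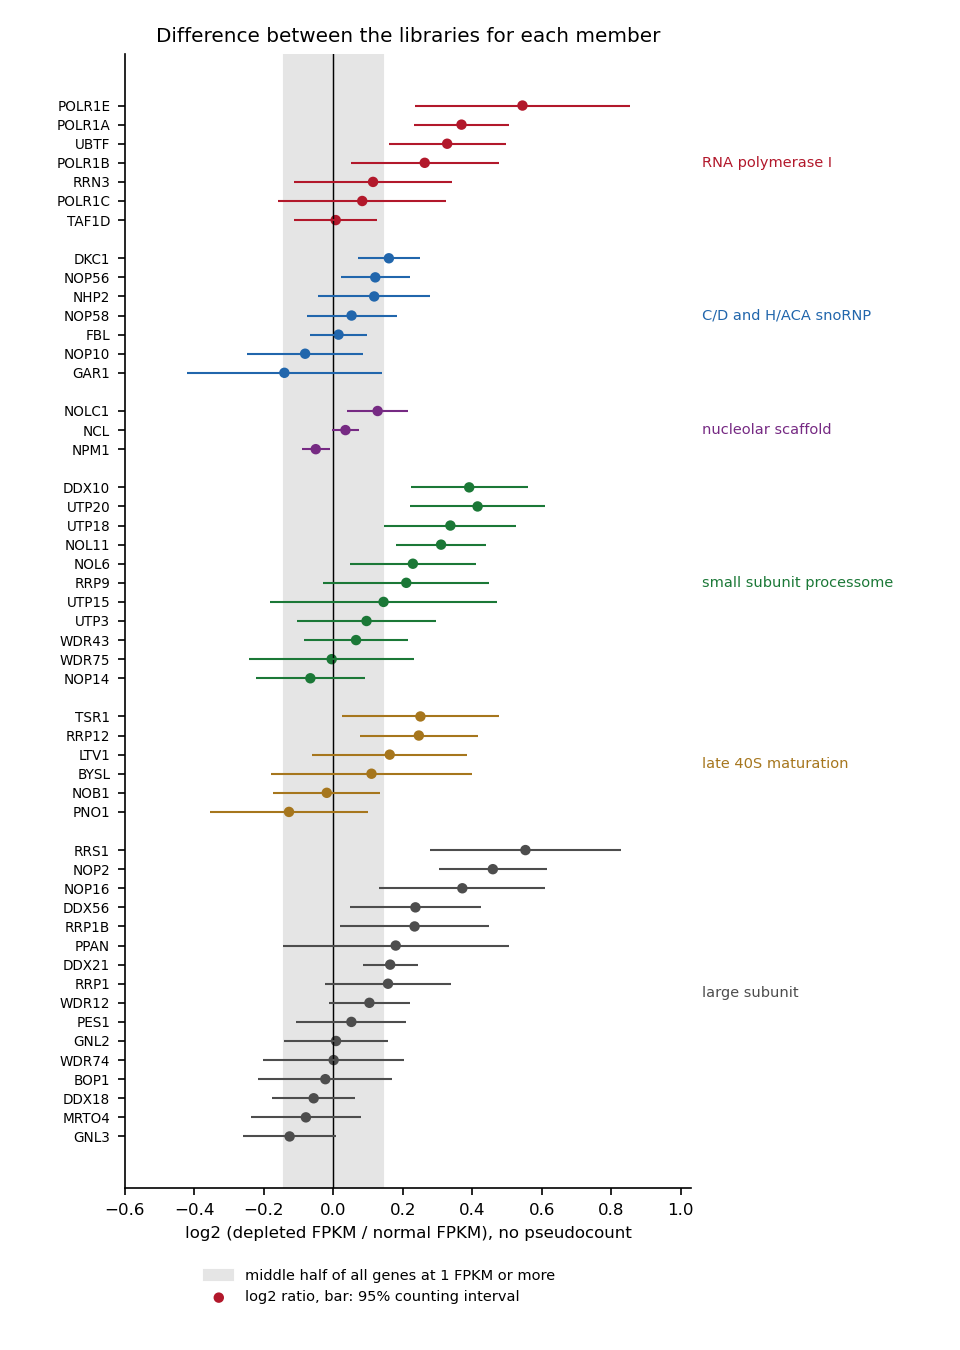
Log2 ratio of depleted to normal FPKM without a pseudocount for the 50 members, by role, with bars for the 95% counting interval. The grey band spans the quartiles of all genes at 1 FPKM or more. Of the 50 intervals 20 lie wholly above 0, 4 of them in the RNA polymerase I group.

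A sequence feature that did not choose the members is shown next, because it was common among them. RefSeq promoter windows of build GRCh38.p14, from 250 bases before to 50 bases after a gene's start, were found for 42 members. The other 8 were RRP1B, RRS1, NOP58, RRP12, POLR1E, BOP1, DDX18 and NOLC1. Of the 42 members 9 had 2 windows. Over all genes, 24900 of 35116 windows matched the start listed for the gene. Gene start below means the start around which a window was placed. The motif searched was CACGTG, which reads the same on both strands. It occurred in a window of 18 of the 42 members (42.9%, exact 95% binomial interval 27.7% to 59.04%), against 12.6% of the 9212 expressed genes with a window. The share was 25.6% in the other genes of the pathway (22 of 86, interval 16.8% to 36.1%) and 28.6% in translation initiation factors (10 of 35, interval 14.6% to 46.3%), so the E-box was not particular to the members. The intervals treat genes as random draws, which chosen lists are not, so they do not test the shares. By window the shares were 35.3% of the members' 51 windows and 9.36% of the 13347 windows of expressed genes. In 14 members (33.3%) an E-box began within the 50 bases after the start, where 1.57% of expressed genes, 11.6% of the other pathway genes and none of the 35 initiation factors had one. Below are 30 bases around the E-box, 5′ to 3′, with CACGTG in capitals, for 6 members that were higher on the depleted diet and 4 that were lower.
NOP2 (chr12:6568242-6568271, minus strand): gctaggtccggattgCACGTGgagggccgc
UTP20 (chr12:101280083-101280112, plus strand): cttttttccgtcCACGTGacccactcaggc
UTP18 (chr17:51260538-51260567, plus strand): gcagcgaggttcCACGTGagcgcctgcgtt
NOL6 (chr9:33473894-33473923, minus strand): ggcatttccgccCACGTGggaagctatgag
RRP9 (chr3:51941892-51941921, minus strand): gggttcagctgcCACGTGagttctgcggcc
PES1 (chr22:30591880-30591909, minus strand): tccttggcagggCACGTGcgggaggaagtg
GNL3 (chr3:52686026-52686055, plus strand): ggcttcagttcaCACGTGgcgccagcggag
MRTO4 (chr1:19251807-19251836, plus strand): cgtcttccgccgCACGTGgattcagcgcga
PNO1 (chr2:68157885-68157914, plus strand): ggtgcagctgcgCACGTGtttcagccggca
NOP10 (chr15:34343130-34343159, minus strand): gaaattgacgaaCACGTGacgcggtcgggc

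In these 10 the E-box began at position 36 of the transcribed strand for NOP2, counted from 1 at the gene start, at 5 for UTP18, at 14 for NOL6 and for PES1, and at 7 for GNL3. It began 10 bases before the start in UTP20 and 11 before it in NOP10. UTP18 and NOP10 each held a second E-box further upstream. UTP18's is shown in the 250 bases before its start, beside the same stretch of POLR1A, which was also higher on the depleted diet and holds no CACGTG in its window.
UTP18 (chr17:51260296-51260545, plus strand): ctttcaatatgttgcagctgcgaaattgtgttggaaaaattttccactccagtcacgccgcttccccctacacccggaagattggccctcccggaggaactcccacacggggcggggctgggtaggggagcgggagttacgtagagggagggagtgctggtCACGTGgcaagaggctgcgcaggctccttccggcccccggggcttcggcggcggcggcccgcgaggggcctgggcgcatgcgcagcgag
POLR1A (chr2:86105887-86106136, minus strand): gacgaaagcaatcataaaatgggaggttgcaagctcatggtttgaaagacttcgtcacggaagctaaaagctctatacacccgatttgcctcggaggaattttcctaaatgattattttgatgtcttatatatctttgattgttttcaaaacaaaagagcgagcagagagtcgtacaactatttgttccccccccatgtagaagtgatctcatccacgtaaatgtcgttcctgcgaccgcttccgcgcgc

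Members with an E-box were higher less often than those with a window but no E-box, 66.7% against 87.5%. Members with an E-box had a median log2 ratio of 0.06, with 12 of 18 higher, and those with a window but no E-box a median of 0.12, with 21 of 24 higher. The 8 members without a window had a median of 0.17. Over all expressed genes the share that was higher was 50.3% with an E-box and 49.6% without. By role, an E-box was found in 6 of 11 small subunit processome members, 6 of 12 large subunit members, 3 of 6 particle proteins, 3 of 5 late small subunit factors, and none of the 2 scaffold and 6 RNA polymerase I genes with a window.

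Binding of any factor to these E-boxes was not measured. MYC, a factor known to bind this sequence, was 76.1 FPKM in the normal-diet library and 106 FPKM in the depleted-diet library (log2 ratio 0.47). Its partner MAX was 15.5 and 21.3 FPKM (0.43). The counting interval was 0.36 to 0.59 for MYC and 0.05 to 0.86, much wider, for MAX. The 6 listed proteins that compete with MYC for MAX went both ways, 4 higher and 2 lower. MXI1 was 31.4 and 25.3 FPKM (-0.30, counting interval -0.50 to -0.12), and MXD3 was 24.4 and 20.8 FPKM (-0.22), within counting error. MXD4 was 15.9 and 19.4 FPKM (0.27, counting interval 0.10 to 0.46), and MGA was 4.64 and 5.54 FPKM (0.21, counting interval 0.06 to 0.45). MNT (0.05) and MXD1 (0.03) were within counting error. Of the 9 listed genes of the MYC network, with MYC, MAX and MLX included, 7 were higher and 2 lower (median 0.05). The share that was higher was 77.8%, against 49.4% of all genes.

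All 7 genes of RNA polymerase I and its initiation factors were higher on the depleted diet, with a median log2 ratio of 0.24, above that of the other 5 role groups. POLR1E, a peripheral subunit that contacts UBTF, was 9.84 FPKM in the normal-diet library and 14.3 FPKM in the depleted-diet library (log2 ratio 0.50). Values below are in this order. Its counting interval, on the ratio without a pseudocount, ran from 0.24 to 0.85. POLR1A, the largest subunit, was 11.1 and 14.3 FPKM (0.34, counting interval 0.23 to 0.51). With POLR1A, POLR1B (10.1 and 12.1 FPKM, 0.24, counting interval 0.05 to 0.48) forms the catalytic core. Both core subunits were among the 6 lowest of the 50 members in mean level, and both were higher beyond counting error.

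UBTF, which binds ribosomal DNA and keeps it open for transcription, was 24.99 and 31.4 FPKM (0.32, counting interval 0.16 to 0.50). RRN3, the initiation factor that growth signals act on, was 19.8 and 21.5 FPKM (0.11), and its counting interval of -0.11 to 0.34 included 0. POLR1C, a subunit shared with RNA polymerase III, was 29.5 and 31.3 FPKM (0.08), and TAF1D, of the promoter selectivity factor, 75.7 and 76.1 FPKM (0.0069). Both had intervals that included 0. Reads of RRN3 may be shared with its pseudogenes, of which RRN3P1 was 8.94 and 9.20 FPKM and RRN3P3 3.88 and 3.98 FPKM.

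The other genes of this machinery were more mixed. Of 14 further RNA polymerase I subunits, shared subunits and factors, 8 were higher and 6 lower (median 0.05). Among those with a mean of 5 FPKM or more, TAF1B, of the selectivity factor, had the highest ratio (8.85 and 10.5 FPKM, 0.23), and TAF1C, of the same factor, the lowest (18.7 and 17.1 FPKM, -0.12). Genes of RNA polymerase III, which makes the smallest ribosomal RNA and transfer RNA, were higher in 10 of 19, with a median of 0.03. Among them POLR3D was 5.66 and 7.42 FPKM (0.34) and GTF3C3 14.04 and 11.6 FPKM (-0.26).

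The small subunit processome, the large particle that forms on the precursor and releases the small subunit's RNA, had 9 of 11 members higher, with a median of 0.20. DDX10, a helicase of this particle, was 14.3 and 18.7 FPKM (0.37, counting interval 0.22 to 0.56). UTP20, a very large scaffold protein, was 5.91 and 7.89 FPKM (0.36, counting interval 0.22 to 0.61). UTP18, a WD-repeat subunit, was 29.8 and 37.7 FPKM (0.33), and NOL11, which also takes part in transcription of the precursor, 40.8 and 50.6 FPKM (0.30). In all 4 the counting interval lay above 0, as it did for NOL6 (16.6 and 19.4 FPKM, 0.22).

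For the other 6 members of the processome the interval included 0. RRP9, which binds the U3 guide RNA, was 23.7 and 27.4 FPKM (0.20). UTP15, at the lowest mean level of all members, was 5.49 and 6.07 FPKM (0.12). UTP3 (0.09) and WDR43 (0.06) were slightly higher. WDR75 was 27.3 and 27.2 FPKM (-0.0045), and NOP14 was 34.1 and 32.6 FPKM (-0.06). NOL11, UTP15, WDR43 and WDR75 all belong to the part that binds the precursor first. The counting interval of NOL11 (0.18 to 0.44) overlapped those of UTP15 (-0.18 to 0.47), WDR43 (-0.08 to 0.21) and WDR75 (-0.24 to 0.23). A difference between these genes was not tested.

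Of the 6 factors that act late on the small subunit, 4 were higher and 2 lower (median 0.13). TSR1, which blocks early entry of the subunit into translation, was 12.8 and 15.2 FPKM (0.23, counting interval 0.03 to 0.48). RRP12, which helps export from the nucleus, was 16.6 and 19.7 FPKM (0.23, counting interval 0.08 to 0.42). LTV1 was 23.6 and 26.5 FPKM (0.16) and BYSL 13.003 and 14.03 FPKM (0.10). NOB1, the nuclease that makes the last cut, was 55.9 and 55.2 FPKM (-0.02), and its binding partner PNO1 20.4 and 18.6 FPKM (-0.12). The nuclease and its partner were thus the 2 lower members of this group, both within counting error.

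Among 16 large subunit factors 12 were higher and 4 lower (median 0.12). RRS1, which brings a small ribonucleoprotein into the early large subunit, was 14.8 and 21.7 FPKM (0.52, counting interval 0.28 to 0.83). NOP2, a methyltransferase that methylates a cytosine of ribosomal RNA with S-adenosylmethionine, was 30.4 and 41.8 FPKM (0.45, counting interval 0.30 to 0.61). NOP16 was 36.1 and 46.8 FPKM (0.36, counting interval 0.13 to 0.61). These 3 were the members of the group past 25% higher, and their intervals lay further above 0 than those of the rest, which began at 0.085 or less.

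The helicases of this group went both ways. DDX21, which also acts on transcription by RNA polymerase I, was 72.1 and 80.8 FPKM (0.16) and DDX56 was 30.7 and 36.2 FPKM (0.23), both above 0 beyond counting error. DDX18 was 42.4 and 40.8 FPKM (-0.06), within counting error. The related pair RRP1 (21.7 and 24.2 FPKM, 0.15) and RRP1B (9.10 and 10.7 FPKM, 0.21) were both higher, and the interval of RRP1B alone excluded 0.

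PES1, BOP1 and WDR12 form one complex needed to process the large subunit's RNA. PES1 was 38.9 and 40.4 FPKM (0.05), BOP1 was 26.9 and 26.5 FPKM (-0.02) and WDR12 was 19.8 and 21.3 FPKM (0.10). All 3 intervals included 0. The GTPase GNL3, known as nucleostemin, was 64.9 and 59.5 FPKM (-0.12), and its relative GNL2 was 44.2 and 44.4 FPKM (0.0077). MRTO4, which holds the place of a stalk protein, was 40.6 and 38.5 FPKM (-0.08), and WDR74 was 40.1 and 40.2 FPKM. PPAN was 12.6 and 14.3 FPKM (0.17), but a read-through transcript with its neighbour, PPAN-P2RY11, is listed separately at 1.33 and 2.52 FPKM, and reads of the 2 may be split.

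The 2 most abundant members were scaffold proteins. NPM1, a nucleolar chaperone and the highest member, was 946 and 913 FPKM (-0.05, counting interval -0.09 to -0.0096), and its ratio was 0.0080 after the median of genes of like level was subtracted. NCL, nucleolin, was 361 and 369 FPKM (0.03, counting interval -0.0043 to 0.07). Its ratio was 0.08 with the libraries scaled to the same summed FPKM and 0.09 when centred by level, both past that interval. NOLC1, which links the nucleolus to Cajal bodies, was 70.5 and 77.0 FPKM (0.13). Without such scaling only NOLC1 of the 3 scaffold genes was higher beyond counting error (interval 0.04 to 0.22). NPM1 alone held more FPKM than the next 2 members together.

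The 7 particle proteins had a median of 0.05, with 5 higher and 2 lower. FBL, fibrillarin, the methyltransferase of box C/D particles, was 289 and 292 FPKM (0.02). Its partners NOP56 and NOP58 were 91.0 and 99.0 FPKM (0.12) and 65.1 and 67.6 FPKM (0.05). DKC1, dyskerin, the pseudouridine synthase of box H/ACA particles, was 96.2 and 108 FPKM (0.16, counting interval 0.07 to 0.25). Its 3 partners did not move with it as a set, since NHP2 was 115 and 125 FPKM (0.12), NOP10 was 169 and 159 FPKM (-0.08) and GAR1 was 27.4 and 24.9 FPKM (-0.14). Only DKC1 and NOP56 of the 7 were beyond counting error.

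Small nucleolar RNA genes lie within several members, in GENCODE release 29. Of 31 such genes on the same strand, in 10 members, 26 were listed at 0 in both libraries. The 4 listed above 0 in both all lay in TAF1D. SNORA40 was 167 and 152 FPKM, SNORA8 was 60.5 and 78.7 FPKM, SNORA18 was 36.4 and 113 FPKM and SNORA1 was 19.2 and 20.0 FPKM. SNORA56, in DKC1, was listed at 0 and 12.8 FPKM. The host gene TAF1D differed by less than 1% between the libraries. The kit was for mRNA libraries, and no counting interval is given for these short genes. Whether their reads came from the small RNAs or from RNA of the host gene was not tested. Their differences between the libraries are therefore not read as changes.

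Level and transcript length moved with the ratios. Over all genes, the median log2 ratio was 0.01 at a mean of 10 to 20 FPKM and -0.06 at 100 FPKM or more, where 33.4% of genes were higher. Of 11 members at 10 to 20 FPKM 10 were higher, and of 6 at 100 FPKM or more 4 were higher. By length, the share that was higher ran from 42.1% of all genes under 1000 nt to 56.4% of those of at least 4000 nt. All 9 members of at least 4000 nt were higher, with a median of 0.23. After the median of all genes in the same length band was subtracted, 41 of 50 members were higher, against 50% of all genes, and 7 were past 25% higher, against 7.16%. With bands of mean FPKM instead, 41 were higher, against 50%, and 8 past 25%, against 6.6%.

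**Figure D3:**
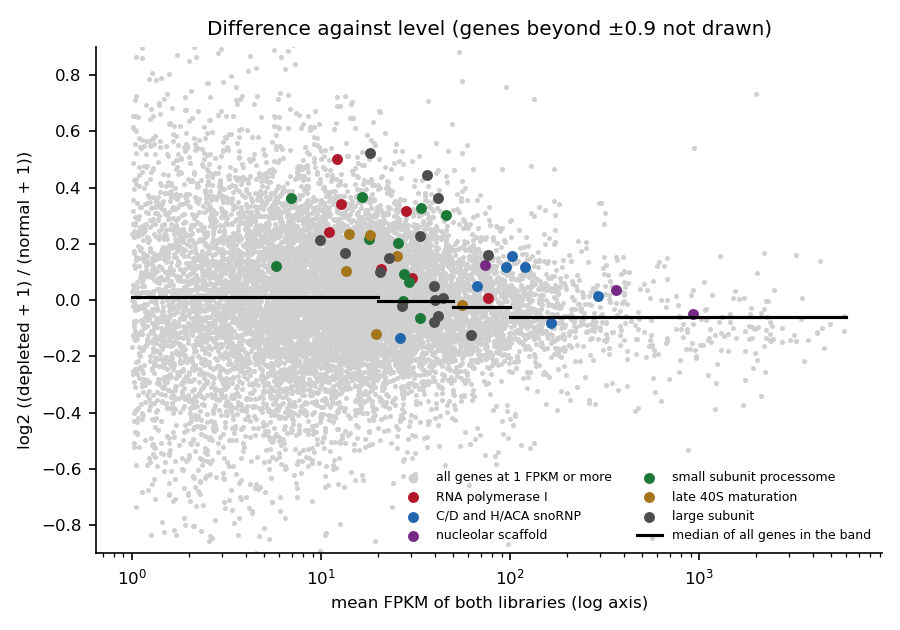
Log2 ratio against the mean FPKM of both libraries (log axis) for all 12414 genes at 1 FPKM or more (grey) and the 50 members (coloured by role), with the median of all genes in 6 bands of level as black lines. The medians decline from 0.01 at low levels to -0.06 at 100 FPKM or more, while the members between 10 and 20 FPKM lie above the line in 10 of 11 cases.

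Other genes of the pathway were also mostly higher. Of 99 further genes of ribosome biogenesis and RNA polymerase I, 70 were higher and 29 lower (median 0.12). The share that was higher was 70.7%, against 49.4% of all genes. Of 35 further small subunit factors 28 were higher, and their highest ratio was that of NAT10 (28.7 and 35.9 FPKM, 0.32), an RNA acetyltransferase. Their lowest was that of EMG1, a methyltransferase of the small subunit's RNA (36.0 and 26.7 FPKM, -0.41). Further large subunit factors were higher in 28 of 40, from TEX10 (11.1 and 16.3 FPKM, 0.51) to EFTUD1, a GTPase of the last assembly steps (14.6 and 12.3 FPKM, -0.22). Particle assembly factors were higher in 6 of 10. Of these TCOF1, which also recruits RNA polymerase I, was 24.3 and 29.2 FPKM (0.26), and RUVBL2, an ATPase, 101 and 90.9 FPKM (-0.15).

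Genes for the ribosome's own proteins were mostly lower. Of 79 cytosolic ribosomal protein genes at 1 FPKM or more, 20 were higher and 59 lower (median -0.08), and none was 25% higher. The share that was higher was 25.3%, against 49.4% of all genes. It was 33.4% of all genes at 100 FPKM or more (median -0.06) and 42.1% of those under 1000 nt (median -0.04). With the summed scaling the family's median was -0.038. These are the most abundant of the families compared, at up to 5936 FPKM, and short, with a median length of 764 nt against 2299 nt for the members. The part of length and level in this difference between families was not tested. Mitochondrial ribosomal protein genes were higher in 37 of 77 (median -0.0055, and 0.041 with the summed scaling), and translation initiation factors in 22 of 42 (0.01). Proliferation genes were higher in 6 of 10 (0.06).

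**Figure D4:**
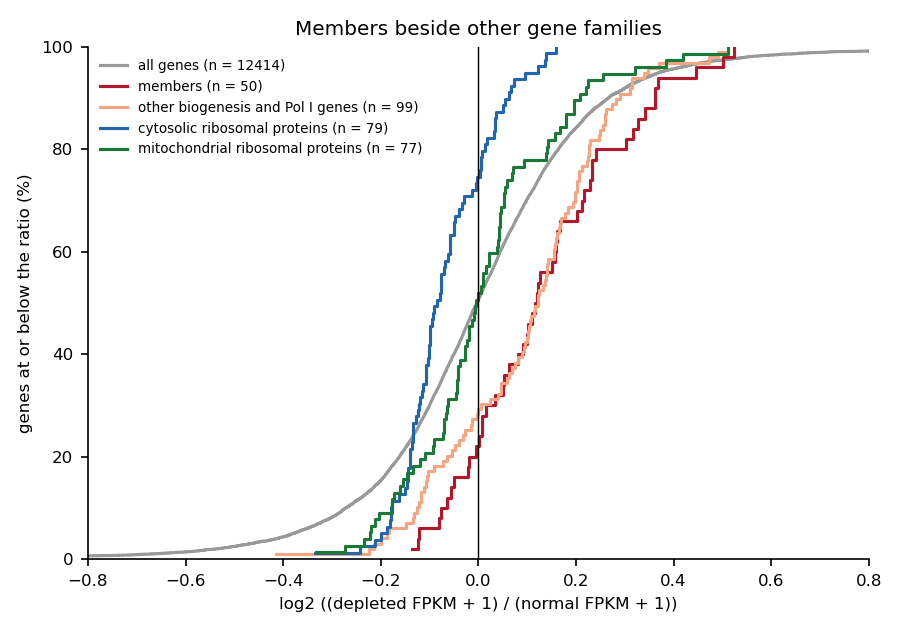
Cumulative percent of genes at or below each log2 ratio, for the 50 members, 99 other genes of ribosome biogenesis and RNA polymerase I, 79 cytosolic and 77 mitochondrial ribosomal protein genes, and all 12414 genes at 1 FPKM or more. The curve of the members crosses 0 at 22% and that of all genes at 50.6%, while the cytosolic ribosomal proteins lie to the left.

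The libraries matched their label as colon epithelium. All 8 epithelial markers were detected, from CDX2 at 5.14 and 4.92 FPKM to KRT8 at 3849 and 3313 FPKM, with 4 higher and 4 lower. Human markers of other cells were low: 6 fibroblast markers summed to 4.42 and 3.86 FPKM with DCN at 0 in both, and 4 endothelial markers to 0.211 and 0.108 FPKM with KDR at 0. The 6 leukocyte markers summed to 27.6 and 24.5 FPKM, of which CD68 gave 25.6 and 20.8, and PTPRC was at 0.0268 and 0. Host cells are mouse cells, so these values do not measure their number. FPKM are scaled to sequencing depth, so neither the number of tumour cells nor the RNA per cell can be read from them.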

How the data were processed

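The authors deposited 1 file of FPKM per library, per the file headers. The submitters' processing notes list Cuffdiff 2.2.1, SAMtools 0.1.18, TopHat2 2.1.1, Bowtie2 2.2.8 and the human build hg19, and give no roles. Per the labels' protocols, a kit for stranded mRNA libraries was used. Removal of mouse reads, strand setting and annotation were not given in the sources used here. For this reason 15 members that overlap a listed protein-coding or antisense gene, or have a listed pseudogene, are less certain. Overlaps with short RNA genes were not counted here.

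Log2 ratios used a pseudocount of 1 FPKM and kept genes with a mean of 1 FPKM or more. Fragments were estimated from values times GENCODE 29 transcript length (another build), in 632 and 630 low values. Of these 51.6% and 50.2% lay within 10% of a whole number of fragments, against 19.4% for an even spread. Ratios, intervals and depth were tested on counts simulated with counting error alone and with the same transcript lengths. That test did not cover the choice of transcript, the other build or the spread between tumours. Members, role groups and lists were chosen with earlier results of these data known. Genes named were all RNA polymerase I members, the 2 highest and 2 lowest ratios of each other role group, the 6 most abundant members, MYC, MAX, and the extremes of each further list of the pathway with a mean of 5 FPKM or more. The remaining members, the other genes of the MYC network and the marker genes were named after their values were seen. Python 3.11.15, pandas 2.3.3 and NumPy 2.4.6 were used.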

Additional observations from a re-analysis of the deposited data

How the results depend on the processing

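No paired analysis was possible because there was a single library for each diet, and leaving out a replicate was not possible either. Centring by length or level and leaving out members that overlap another protein-coding or antisense gene were chosen after seeing the data. In every setting run more members were higher than lower and none was 20% lower. Of 140 other values of the main results 129 moved by less than their counting interval or by less than 1.5 times. Part of this was fixed in advance. Every member had a mean of at least 5.78 FPKM, so dropping the filter or raising it to 5 FPKM could not change the members' values. A different pseudocount cannot change the sign of a ratio. Against 8 members at least 25% higher there were 4 of 50 with a pseudocount of 5 FPKM (2.38% of all genes) and 0 past 1.5-fold (1.65% of all genes). Both settings can only lower the count, but how far it fell depends on these data. The largest fold of a member was 1.44 (RRS1), so past 1.5-fold the members had no excess over all genes. With both libraries scaled to the same summed FPKM, which shifts every ratio by 0.05, medians were 0.16 for members, 0.082 for the scaffold group, 0.17 for the other genes of the pathway, -0.038 for cytosolic and 0.041 for mitochondrial ribosomal proteins. The share of all genes that was higher was then 58.5%, and 42 of 50 members were higher. The scaffold group had a median of 0.093 when centred by mean FPKM. Without the 15 members that overlap another protein-coding or antisense gene, 28 were higher and 7 lower (median 0.16). With CACGTG or CACGCG on either strand as the motif, 71.4% of members had a match, against 31.3% of expressed genes, by construction more in both. Of 320 values of named genes 316 moved by less than their counting interval. These include 40 without a filter and 40 with a mean of at least 5 FPKM, where no ratio could change by construction. The lower ratio of NPM1 was -0.0034 with the summed scaling and 0.0080 when centred by level, so its sign turned only with the second. NCL was 0.082 and 0.093 in these 2 settings. Counting error is largest for the members with the fewest estimated fragments, UTP15, PPAN and POLR1E.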
